A study of Mus musculus with 8 samples.

Results

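MHC class I antigen presentation was followed in preadipocytes through 10 genes: the heavy chains H2-K1 and H2-D1, their light chain B2m, the transporter subunits Tap1 and Tap2, the loading factor Tapbp, the immunoproteasome subunits Psmb8, Psmb9 and Psmb10, and the transactivator Nlrc5. The members were all probe sets to which the platform annotation gave exactly 1 symbol, that of any of these genes. This rule found 27 of 45101 probe sets on the array, for 10 of 18193 genes with a probe set of their own. Of the 27, 22 passed the filter on low values, which kept the upper 60% of probe sets by mean log2 signal, and these 22 covered all 10 genes. Preadipocytes, the precursors of fat cells, had been isolated from subcutaneous depots of C57BL/6 newborns at day 2. Their genotype was Dicer lox/lox, in which Cre recombinase can excise part of the gene for Dicer, the ribonuclease that makes mature microRNAs. All 8 samples carried the floxed alleles and were infected with an adenovirus (750 MOI, 4 µg/mL of polybrene). The 4 control samples were given Ad5CMVeGFP, which carries GFP, and the 4 Dicer knockout samples Ad5CMVCre-eGFP, which carries Cre and GFP, both under the CMV promoter, and total RNA was taken 4 days later. The design asks how class I genes respond when Dicer is targeted. No sample had the Cre virus without floxed Dicer, so effects of Cre cannot be told apart from those of losing Dicer, and every sample was infected. The labels name biological replicates 1 to 4 without saying whether they are separate animals or cultures, so p-values rest only on how far these samples spread, which may be technical.

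MHC class I molecules show short peptides from inside the cell to cytotoxic T cells and are inspected by natural killer cells. The proteasome cuts proteins into peptides, the TAP transporter carries these into the endoplasmic reticulum, and tapasin holds an empty heavy chain with B2m beside TAP until a peptide fits. Interferons raise most of the pathway, exchange the catalytic proteasome subunits for the immunoproteasome ones, and act in part through NLRC5, which assembles on the class I promoters. Stromal cells such as preadipocytes express class I, as almost all nucleated cells do.

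Promoters of the members are shown first because class I promoters are known for elements they share, and because several members varied together across arrays. Upstream windows of 250 bases, ending at the base before the annotated start, were taken from RefSeq (GRCm38.p6). For each member the first listed start was used, and 8 of the 10 genes matched, all but Tap2 and Nlrc5. The 5 printed are H2-K1 (chr17:34000348-34000597, minus strand), H2-D1 (chr17:35262844-35263093, plus strand), B2m (chr2:122147437-122147686, plus strand), Tap1 (chr17:34187306-34187555, plus strand) and Tapbp (chr17:33919228-33919477, plus strand). Tapbp was taken as a member whose log2 values had a negative Pearson r with each of the others printed, such as -0.517 with H2-K1. Capitals mark matches on either strand to the motifs searched. These were the interferon regulatory factor motif AANNGAAA and its longer form GAANNGAAA, the NF-kB motif by name, the core TGACG of the cyclic AMP response element, and the CCAAT box.
H2-K1: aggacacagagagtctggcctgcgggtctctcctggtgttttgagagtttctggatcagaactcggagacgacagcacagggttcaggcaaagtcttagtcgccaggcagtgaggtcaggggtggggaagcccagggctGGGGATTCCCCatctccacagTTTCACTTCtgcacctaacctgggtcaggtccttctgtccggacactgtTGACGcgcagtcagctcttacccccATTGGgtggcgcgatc
H2-D1: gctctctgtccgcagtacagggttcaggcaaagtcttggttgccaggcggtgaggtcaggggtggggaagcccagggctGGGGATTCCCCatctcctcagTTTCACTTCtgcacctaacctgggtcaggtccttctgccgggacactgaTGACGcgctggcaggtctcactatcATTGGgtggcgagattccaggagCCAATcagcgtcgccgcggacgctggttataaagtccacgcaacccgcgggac
B2m: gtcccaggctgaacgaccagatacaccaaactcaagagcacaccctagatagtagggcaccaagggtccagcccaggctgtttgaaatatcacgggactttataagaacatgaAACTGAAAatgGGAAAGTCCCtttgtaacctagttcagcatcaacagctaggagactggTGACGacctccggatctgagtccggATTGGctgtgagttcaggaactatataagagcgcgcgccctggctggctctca
Tap1: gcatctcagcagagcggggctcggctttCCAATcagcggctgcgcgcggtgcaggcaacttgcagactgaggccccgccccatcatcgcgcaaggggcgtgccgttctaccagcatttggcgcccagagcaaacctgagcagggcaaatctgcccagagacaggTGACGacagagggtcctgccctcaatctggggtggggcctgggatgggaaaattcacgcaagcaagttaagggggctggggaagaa
Tapbp: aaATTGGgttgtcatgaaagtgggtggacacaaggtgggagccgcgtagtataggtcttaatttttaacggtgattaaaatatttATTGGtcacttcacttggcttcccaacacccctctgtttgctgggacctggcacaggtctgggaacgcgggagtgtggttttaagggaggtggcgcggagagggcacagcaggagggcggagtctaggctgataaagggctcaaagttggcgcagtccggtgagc
The windows of H2-K1 and H2-D1 shared an identical stretch of 47 bases that runs across the NF-kB match. In H2-D1 the NF-kB matches spanned bases 171 to 161 upstream of the start, followed by GAANNGAAA at 150 to 142, TGACG at 101 to 97 and CCAAT boxes at 76 to 72 and 53 to 49. H2-K1 held the same order, with TGACG at 41 to 37 and a CCAAT box at 16 to 12. B2m held AANNGAAA at 137 to 130, NF-kB at 126 to 117, TGACG at 78 to 74 and CCAAT at 53 to 49. Tap1 and Psmb9 lie head to head and their windows overlap by 225 bases, so that the same TGACG and CCAAT matches stand in both. Over the 8 windows, 3 held AANNGAAA and 3 held NF-kB, against 21.3% and 3.9% of 32817 distinct windows of all genes. A gene can have several windows among the 32817, whereas each member has 1 here. GAANNGAAA, which overlaps the shorter form, was in 2 (6.31% of all), TGACG in 5 (17.7%) and CCAAT in 6 (33.8%). The windows of Tap1 and Psmb9, and those of H2-K1 and H2-D1, count separately though they share sequence. These counts are thus not independent, the motifs searched are ones class I promoters are known for, and no test was made. Psmb8 and Psmb10 held none of these motifs in their windows of 250 bases, and sequence beyond these windows or at other starts was not searched. A match is a description of the letters only, and whether these elements bear on how members varied together was not tested.

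The values are array signals, linear and scaled per array by the authors to a common trimmed mean. Median signals were 321.1 to 418.9 over the 8 arrays. The brighter Dicer1 probe set read 1140.7 to 2113.7 in controls and 1110.1 to 1403.8 in knockouts. Its log2 difference was -0.15 (SE 0.20; adjusted p = 0.999 by limma). The position of the Dicer1 probes relative to the excised segment was not known here, so this does not check the deletion. Arrays of the same number in both groups shared deviations, with correlations of 0.189 to 0.372 across probe sets, and were treated as pairs. The 18S ribosomal RNA 5′ control read 5905.9 to 14007.2 on arrays numbered 1 and 3 and 30583.9 to 43029.9 on those numbered 2 and 4. Stromal markers were bright (Col3a1 97572.2 to 157473 and Pdgfra 11906.1 to 22612.8). Leukocyte markers ranged from Cd68 (724.3 to 1749.8), Laptm5 (669.6 to 1173.6) and Csf1r (671.5 to 1065.2), above the median signal of the arrays, to Ptprc, the gene of CD45, at 8.5 to 138.4. Endothelial markers ranged from Kdr (810.8 to 1257.4) and Egfl7 (635.4 to 1053.5) to Pecam1 (43.2 to 210.1).

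No member passed the test at an adjusted p of 0.05. By limma without the replicate block, 0 of 22 member probe sets were called, against 1 of 27026 over the array (0.0037%). With the replicate number as a block, called the paired fit below, 0 of 22 were called, against 13 (0.0481%). At an unadjusted p under 0.05, 1 of 22 was higher in the knockout and 0 lower without the block, where 2.08% of all tested probe sets were higher, 1.69% lower and 3.77% passed in either direction. With the block 10 of 22 were higher and 0 lower, where 4.67% of all were higher, 4.47% lower and 9.14% passed in either direction. Those 10 were 8 probe sets of the heavy chains, which share sequence and are not independent, and those of Tap1 and Psmb9. By the brightest tested probe set of each gene, 4 of 10 genes were higher with the block (4.96% of all tested genes) and 0 lower (5.35%). With odd against even numbers as the block, 2 of 22 were higher (2.96% of all). Each gene is represented below by its brightest tested probe set. The median log2 difference over the 10 genes was 0.17, knockout minus control, beside -0.002 over 13259 tested genes, and 8 of 10 were above 0, beside 49.6% of all genes. Over probe sets, 19 of 22 were above 0, beside 51.3% of all. The median over the 10 genes was 0.061 without control array 1 and 0.074 without knockout array 4, against 0.25 without control array 4. By pairs 1 to 4 it was 0.28, 0.083, -0.02 and 0.28. In RNA of whole cultures, fewer cells of a type and less RNA per cell cannot be told apart.

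**Figure D1:**
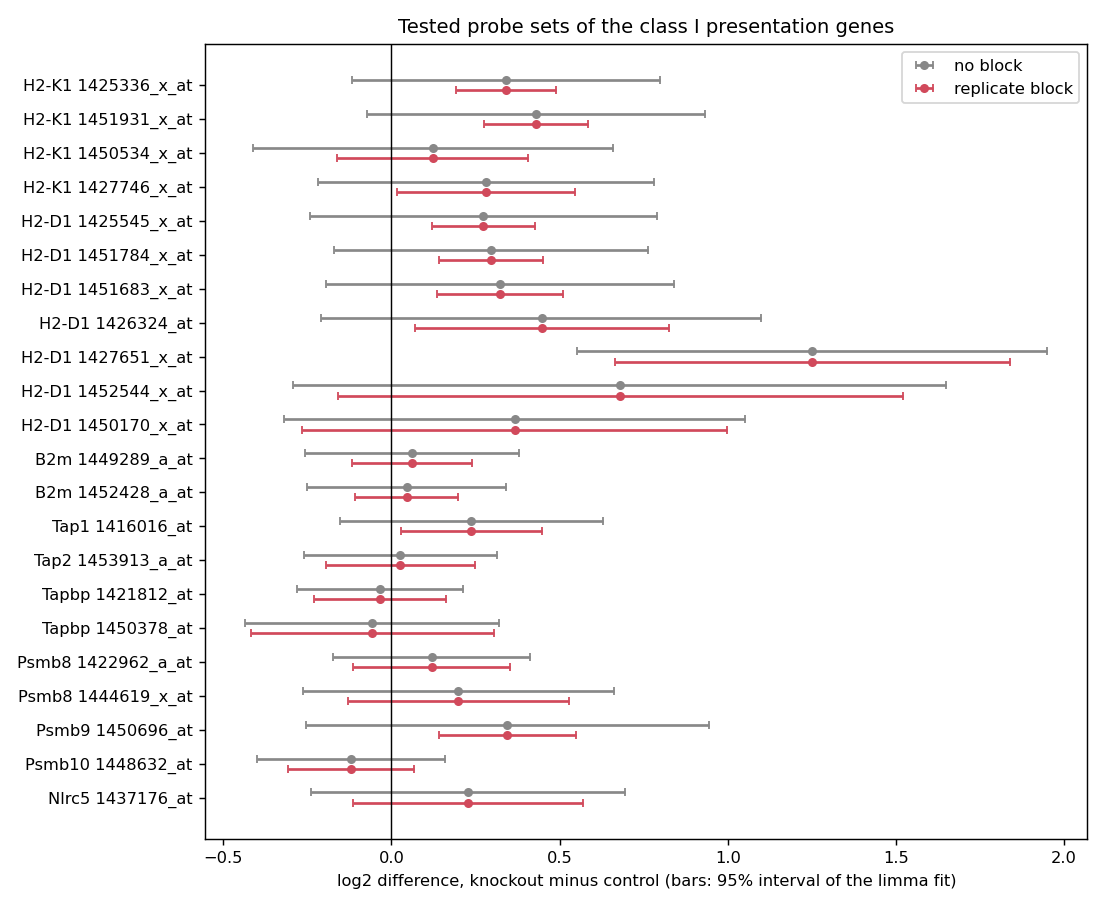
Log2 difference, knockout minus control, of the 22 tested member probe sets, with 95% intervals of the limma fit without a block (grey) and with the replicate number as a block (red), n = 4 arrays per group. The block narrows the intervals of the bright H2-K1 and H2-D1 probe sets to values above 0, such as 0.191 to 0.491 for the brightest H2-K1 probe set. Those of Tap1 and Psmb9 with the block also lie above 0, while those of B2m, Tap2, Tapbp, Psmb8, Psmb10 and Nlrc5 span 0. The intervals are not adjusted for the number of probe sets tested, and no member was called after adjustment.

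H2-K1 and H2-D1 encode the classical heavy chains that bind peptide. Their brightest probe sets read higher in the knockout array than in the same-numbered control array in 4 of 4 pairs, by about 1.2-fold to 1.3-fold on average. For H2-K1 (1425336_x_at) the control arrays 1 to 4 read 20404.2, 33074.9, 32903.3 and 40693.4, and the knockout arrays 1 to 4 read 27875.3, 40976, 39736 and 51423.2. Array 1 was the lowest and array 4 the highest in both groups, and the groups overlapped widely. The log2 difference was 0.34 (1.27-fold; SE 0.21, limma adjusted p = 0.999; paired SE 0.069, paired adjusted p = 0.124), with an exact two-sided permutation p of 0.257. Pairs 1 to 4 gave log2 differences of 0.45, 0.31, 0.27 and 0.34, averaging 0.36 for pairs 1 and 3 and 0.32 for pairs 2 and 4. Without the block it was 0.144 without control array 1 and 0.504 without knockout array 1, and with the block it was 0.306 to 0.365 when each pair was left out. A similar set of values came from 1451931_x_at, with means of 23830 ± 6330 (controls) and 32030 ± 8410 (knockouts; SD over 4 arrays each). Its log2 difference of 0.43 (paired SE 0.071) had the smallest paired adjusted p of any member, 0.0758 by limma, and it too was higher in 4 of 4 pairs. Across the array, 8.61% of tested probe sets were higher in 4 of 4 pairs, and 8 of 22 member probe sets were. Most of these 8 were heavy chain probe sets, which share sequence and are not independent. By the brightest tested probe set of each gene, 4 of 10 member genes were, beside 8.64% of all tested genes. No member was lower in all pairs, where 8.26% of all were. The dimmer H2-K1 probe sets 1427746_x_at and 1450534_x_at were higher in 3 of 4 pairs, with log2 differences of 0.28 and 0.12.

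For H2-D1 (1425545_x_at) the control arrays 1 to 4 read 17768.6, 27898.3, 32667.3 and 35988.6, and the knockout arrays 1 to 4 read 21534.3, 35281.6, 36189.5 and 45310.7. As for H2-K1, array 1 was lowest and array 4 highest in each group. Its log2 difference was 0.27 (1.21-fold; SE 0.24, limma adjusted p = 0.999; paired SE 0.07, paired adjusted p = 0.215). Without control array 1 it was 0.0617, and in the paired fit without each pair in turn it was 0.252 to 0.315. The next probe sets by brightness, 1451784_x_at and 1451683_x_at, gave 0.30 and 0.32 and were likewise higher in 4 of 4 pairs. H2-D1 is measured by 9 probe sets, of which 7 were tested, and all 7 had log2 differences above 0, from 0.27 to 1.25. The largest came from a dim probe set, 1427651_x_at, which read 285.6, 583.9, 121.9 and 483.9 in controls and 802.8, 879.5, 908.1 and 927.9 in knockouts. It was the only member probe set whose lowest knockout array lay above its highest control array, where 1.4% of all tested probe sets did so, and in 0 members did all knockout arrays lie below the controls (1.06% of all). Its log2 difference was 1.25 (2.38-fold; SE 0.32, limma adjusted p = 0.999; paired adjusted p = 0.14), and its exact two-sided permutation p of 0.0286 is the smallest that 4 against 4 arrays can give. The brightest H2-D1 probe set had a smaller difference: the paired 95% interval was 0.121 to 0.426 for 1425545_x_at and 0.664 to 1.84 for 1427651_x_at.

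All 4 H2-K1 probe sets and 7 of the 9 for H2-D1 end in _x_at, a mark for probes that can also bind related transcripts. Heavy chain genes are related in sequence and differ between mouse strains, so signal cannot be split with certainty between H2-K1, H2-D1 and other class I genes. Which allele each probe set was designed on was not known here. A probe set annotated to both heavy chains, 1424948_x_at, which the rule leaves out, read 1417.1 to 3291.4 in controls and 3010.6 to 4577.7 in knockouts (log2 difference 0.54, SE 0.24). Another shared probe set, 1451593_at (H2-Q5 and H2-K1), had a difference of -0.16 (SE 0.21). The H2-D1 probe sets at the edge of the filter were 1450170_x_at, with a mean log2 value of 8.465, just inside, and 1451934_at, with 8.157, just outside. The latter read 92.6 to 228.2 in controls and 166.3 to 397 in knockouts.

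**Figure D2:**
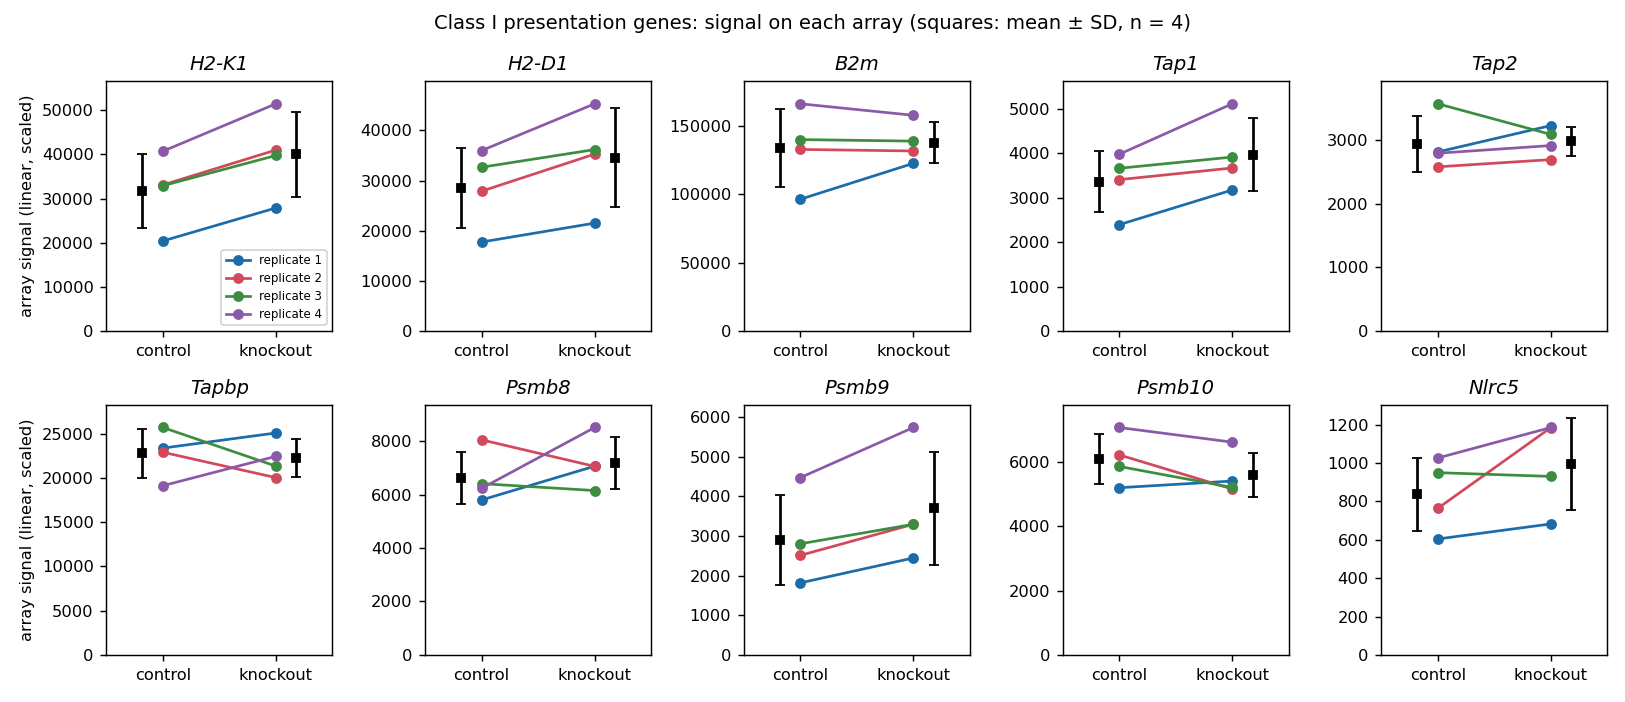
Array signal of the brightest tested probe set of each of the 10 genes, control on the left and knockout on the right of each panel, with lines joining same-numbered arrays and black squares for mean ± SD (n = 4). For H2-K1, H2-D1, Tap1 and Psmb9 all 4 lines go up, array 1 is lowest and array 4 highest in both groups, whereas the lines of Tapbp and Psmb8 cross.

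B2m, the invariant light chain that every class I molecule needs, was higher in 1 of 4 pairs by its brighter probe set and in 3 of 4 by the other. Probe set 1449289_a_at read 96431.1, 132826.3, 140017.1 and 166180.3 in controls 1 to 4 and 122657.8, 131675.6, 138895.7 and 157758.7 in knockouts 1 to 4. The knockout was higher in pair 1 and slightly lower in the other pairs, with pair differences of 0.35, -0.013, -0.012 and -0.075 on the log2 scale. The mean difference was 0.06 (1.04-fold; paired 95% interval -0.118 to 0.241, limma paired adjusted p = 0.887), and without control array 1 it was -0.087. Its second probe set, 1452428_a_at, gave 0.05 (paired interval -0.108 to 0.199), with pair differences of 0.15, 0.086, 0.022 and -0.078. These intervals overlap with that of the brightest H2-K1 probe set (0.191 to 0.491), and whether B2m and the heavy chains differ in their response was not tested.

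Tap1 and Tap2 form the peptide transporter, and Tapbp encodes tapasin, which bridges it to the heavy chain. Tap1 (1416016_at) read 2394.1, 3406.7, 3662.6 and 3976 in controls 1 to 4 and 3174.3, 3669.4, 3915 and 5112.8 in knockouts 1 to 4. Array 1 was again lowest and array 4 highest in each group, and the knockout was higher in 4 of 4 pairs (0.40, 0.11, 0.094 and 0.36). The log2 difference was 0.24 (1.18-fold; SE 0.18, limma adjusted p = 0.999; paired SE 0.097, paired adjusted p = 0.482). It was 0.0874 without control array 1. The other 3 Tap1 probe sets were too dim to be tested, with no array above 249.5. Tap2 (1453913_a_at) read 2811.9, 2578.6, 3567.5 and 2791.9 in controls and 3226.1, 2691.9, 3086.4 and 2912.2 in knockouts. These values did not follow the order of the Tap1 arrays, although Tap2 lies close to Tap1 in the same cluster, and the log2 difference was 0.03 (paired 95% interval -0.194 to 0.249). Tapbp (1421812_at) read 23372.5, 22905, 25702.1 and 19120 in controls and 25081.4, 20031.3, 21331 and 22443.8 in knockouts. Knockouts were higher in 2 of 4 pairs and the log2 difference was -0.03 (paired interval -0.229 to 0.164). The dimmer Tapbp probe set gave -0.06, also higher in 2 of 4 pairs.

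Psmb8, Psmb9 and Psmb10 encode the catalytic immunoproteasome subunits, which replace Psmb5, Psmb6 and Psmb7. Psmb9 (1450696_at) read 1816.1, 2509.9, 2802.1 and 4470.7 in controls 1 to 4 and 2445, 3295.7, 3294.5 and 5735.3 in knockouts 1 to 4. The pairs gave similar log2 differences of 0.42, 0.38, 0.23 and 0.35, while the arrays of each group spread over more than that. The mean was 0.34 (1.27-fold; SE 0.28, limma adjusted p = 0.999; paired SE 0.093, paired adjusted p = 0.244), averaging 0.32 for pairs 1 and 3 and 0.37 for pairs 2 and 4. In the fit without the block, the difference was 0.151 without control array 1, 0.114 without knockout array 4 and 0.573 without control array 4. Leaving out each pair in the paired fit gave 0.322 to 0.384. Psmb8 lies in the same gene cluster, and its probe set 1422962_a_at read 5796.5, 8046.2, 6406.6 and 6232.5 in controls and 7060.1, 7052.4, 6149 and 8508 in knockouts. It was higher in 2 of 4 pairs and the mean log2 difference was 0.12 (SE 0.13; adjusted p = 0.999 by limma; paired SE 0.107, paired adjusted p = 0.808). Leaving out 1 array gave 0.0365 (knockout 4) to 0.216 (control 2), also with 0.0602 without control 1 and 0.191 without knockout 3. The second Psmb8 probe set, 1444619_x_at, had 0.20 (SE 0.21, paired SE 0.15) and was higher in 3 of 4 pairs. Psmb10 (1448632_at), which lies outside that cluster, read 5201.9, 6224.7, 5864.7 and 7076.1 in controls and 5409.6, 5161.8, 5210.7 and 6619.4 in knockouts. Its log2 difference was -0.12 (SE 0.13, limma adjusted p = 0.999; paired SE 0.086, paired adjusted p = 0.741), lower in 3 of 4 pairs. It was -0.0445 without control array 4, -0.191 without control array 1 and -0.201 without knockout array 4.

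The constitutive subunits were in the same comparison without a call. Psmb5, Psmb6 and Psmb7 had log2 differences of -0.09, -0.14 and 0.01, and Psmb6 was lower in 4 of 4 pairs, as were 8.26% of all tested probe sets. Among the 16 tested genes of other proteasome 20S subunits and assembly factors, 0 were called by limma and the median was -0.05. At an unadjusted p under 0.05, 1 was lower without the block (1.94% of all tested genes) and 3 with it (5.35%), and 0 were higher in either fit. The smallest p in that list was that of Pomp, the chaperone that matures the 20S particle, with means of 19800 ± 1800 (controls) and 16840 ± 1010 (knockouts; SD over 4 arrays each). The log2 difference was -0.23 (SE 0.099; adjusted p = 0.999 by limma). Pomp was lower in 4 of 4 pairs, as was Psmg4, another assembly chaperone (-0.29), and Psmg3 had -0.27 and was lower in 3 of 4 pairs. The 3 tested proteasome activator genes had 0 calls, and Psme1, a subunit of the interferon-induced activator, had a difference of 0.08 and was higher in 4 of 4 pairs. Psme3 and Psme4, of other activators, had -0.04 and -0.003.

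**Figure D3:**
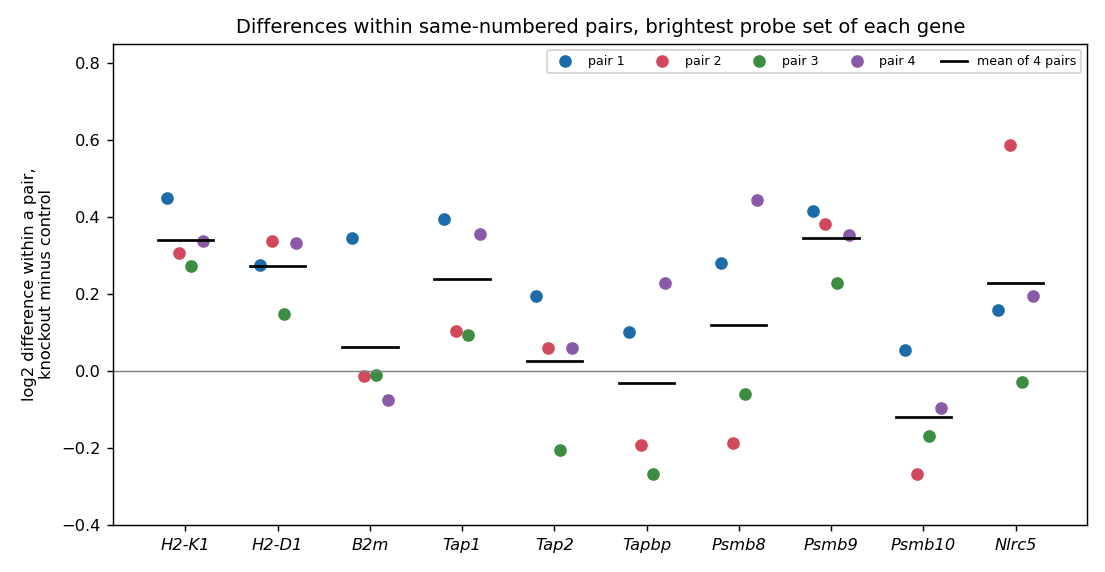
Log2 difference within each same-numbered pair (points, coloured by pair 1 to 4) and their mean (black bars), knockout minus control, for the brightest tested probe set of each gene. H2-K1, H2-D1, Tap1 and Psmb9 have all 4 points above 0, B2m has pair 1 alone above 0, and Psmb10 has 3 of 4 below 0.

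Nlrc5 encodes the transactivator of class I genes. Its probe set 1437176_at read 603.8, 763.5, 949.2 and 1025.6 in controls 1 to 4 and 682.3, 1184, 929.6 and 1184.5 in knockouts 1 to 4. Array 1 was lowest in both groups, and the knockout was higher in 3 of 4 pairs, with 0.59 in pair 2 and -0.028 in pair 3. The log2 difference was 0.23 (1.17-fold; SE 0.21, limma adjusted p = 0.999; paired SE 0.157, paired adjusted p = 0.726). It was 0.0949 without control array 1, 0.14 without knockout array 2 or 4 and 0.385 without knockout array 1. Of 21 tested genes for other class I transcription factors and interferon signalling, 0 were called in either limma fit (1 lower at an unadjusted p under 0.05 in each), 9 were above 0 and the median was -0.02. Of all tested genes, 1.94% were lower at that p without the block and 5.35% with it. Rfxap, a subunit of the RFX complex that binds with NLRC5, had the smallest p, with means of 1430 ± 110 (controls) and 1116 ± 121 (knockouts; SD over 4 arrays each). Its log2 difference was -0.34 (SE 0.14; adjusted p = 0.999 by limma), and it was lower in 4 of 4 pairs. Socs3 and Tyk2 had differences of -0.38 (SE 0.29) and 0.16 (SE 0.15).

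**Figure D4:**
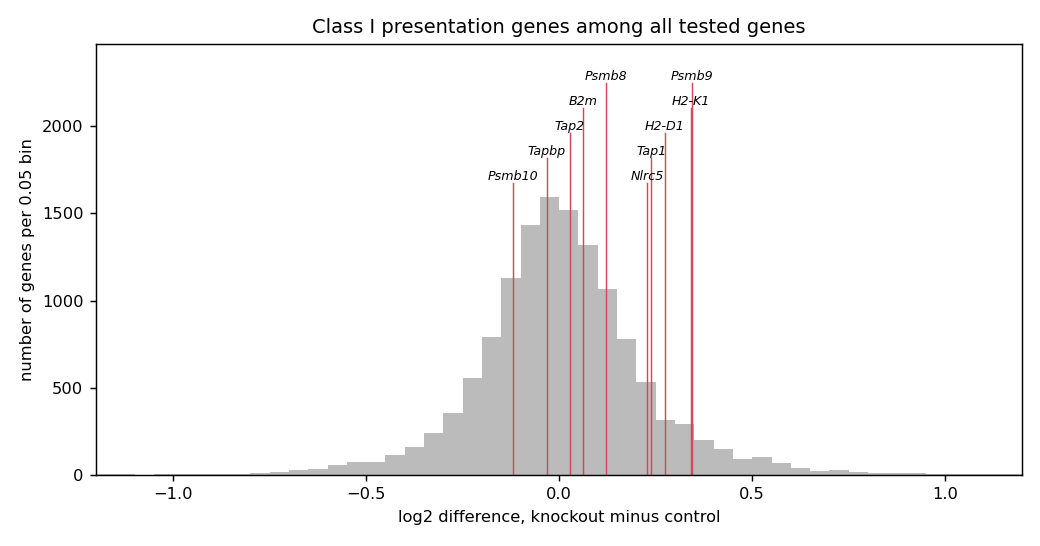
Number of tested genes per 0.05 bin of the log2 difference, knockout minus control (grey bars, 13259 genes, axis cut at the ends), with the 10 class I presentation genes as red lines. Psmb9 and H2-K1 lie above 94.1% and 94% of genes, H2-D1 above 90.9%, and Psmb10 above 24.1%.

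Part of the pathway varied together from array to array. Over the 8 arrays the log2 values of H2-K1 correlated with those of H2-D1 (Pearson r 0.975, Spearman rho 0.881), Tap1 (0.969 and 0.905), Psmb9 (0.933 and 0.952), Nlrc5 (0.924 and 0.929) and B2m (0.89 and 0.643). After the group means were taken off, r with H2-K1 was 0.98, 0.962, 0.925, 0.913 and 0.935 in that order. Leaving out control 1 and knockout 4, the arrays farthest from the median of H2-K1, gave 0.929, 0.887, 0.833, 0.869 and 0.621. Tapbp ran the other way, at -0.517 (rho -0.738), Tap2 had -0.0992 (rho -0.333) and Psmb8 0.517 (rho 0.429, and -0.433 without the farthest arrays). Psmb10 had 0.492 with H2-K1 over all arrays, 0.0989 without the farthest arrays and 0.788 within groups. Within groups its r was 0.896 with Psmb9, 0.855 with B2m and 0.852 with Tap1, as high as between some of the genes above, such as B2m and Nlrc5 (0.802). With H2-D1 and Nlrc5 it was lower, at 0.692 and 0.582. These correlations are descriptions over 8 arrays that share replicate numbers, processing and, for the heavy chains, probe sequence, and no p is given for them. Thus Tap1, Psmb9, Nlrc5 and B2m varied with the heavy chains over all arrays, and Tap2 and Tapbp had an r below 0 with H2-K1. Psmb10 varied with the heavy chains within the groups, but hardly with H2-K1 (r 0.0989) without control 1 and knockout 4.

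**Figure D5:**
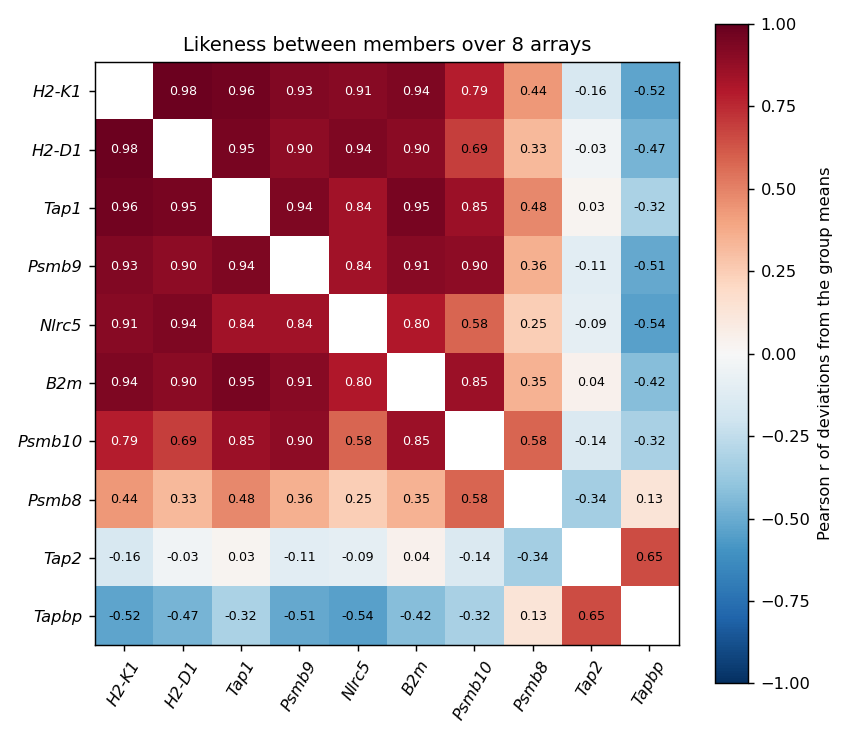
Pearson r between members over the 8 arrays, from log2 signals with the group means taken off, for the brightest tested probe set of each gene. H2-K1, H2-D1, Tap1, Psmb9, Nlrc5 and B2m have r with one another from 0.802 (B2m and Nlrc5) to 0.98 (the heavy chains). Psmb10 has r with these 6 from 0.582 (Nlrc5) to 0.896 (Psmb9), and Tapbp has negative r with all 6.

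By the mean of the members' standardised values, the arrays ran from -1.27 on control 1 and -0.32 on knockout 1 to 0.33 on control 4 and 1.08 on knockout 4. The 5 non-member genes most like this pattern over the 8 arrays were Gpr146 (r 0.965, rho 0.857), Ly6e (0.963, 0.857), Oasl1 (0.963, 0.81), Afg1l (0.962, 0.833) and Nqo1 (0.957, 0.786). Without control 1 and knockout 4 their r was 0.816, 0.691, 0.577, 0.787 and 0.812. In all, 69 of 13249 genes (0.521%) had an r above 0.9. Oasl1 had a log2 difference of 0.38 (SE 0.22; adjusted p = 0.999 by limma, paired adjusted p = 0.281) and Ly6e one of 0.18 (SE 0.14). Control array 1, the lowest for H2-K1, H2-D1, B2m, Tap1, Psmb9 and Nlrc5, also had the lowest median signal (321.1) and the lowest actin 3′ to 5′ ratio (1.66, against 1.78 to 2.06 on the other arrays). Their part in the pattern was not tested.

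The rest of the peptide loading pathway gave 0 calls by limma in both fits, with 1 gene lower at an unadjusted p under 0.05 in the paired fit. In that fit 5.35% of all tested genes were lower at that p. Of 13 tested genes for peptide trimming and folding, 8 were above 0, with a median of 0.04. Lap3, a cytosolic aminopeptidase, was lower in 4 of 4 pairs (log2 difference -0.22, SE 0.14), and Pdia3, the oxidoreductase of the loading complex, had 0.16 (SE 0.14, higher in 3 of 4 pairs). Uggt1, the folding sensor, had 0.23 (SE 0.19, higher in 3 of 4). Among other class I heavy chains, 9 of 18 listed genes had a probe set of their own and 7 were tested. Of these, 2 were above 0 and the median was -0.05, with -0.10 for Cd1d1, which presents lipids, -0.26 for Hfe, which takes part in iron control, and -0.19 for H2-T3. None of these 7 was called in either fit, nor at an unadjusted p under 0.05. The class II list, which marks professional presenting cells, had 0 of 6 tested genes called and a median of -0.12. Cd74, the invariant chain, had -0.14 and H2-DMa, a peptide exchange subunit, -0.16. The class II transactivator Ciita (-0.21) read 197.9 to 441.5 over all arrays.

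Leukocytes carry much class I, so their markers were measured in the same arrays. The summed signal of 14 leukocyte markers was 4711 to 6589 in controls and 5680 to 5977 in knockouts, with control array 1 the lowest. None of 9 tested markers was called, 5 were above 0 and the median difference was 0.09. At an unadjusted p under 0.05, 0 passed without the block and 1 was lower with it. Over all tested genes, 1.99% were higher and 1.94% lower at that p without the block, and 4.96% and 5.35% with it. The macrophage genes Cd68 and Csf1r had medians of 1090.9 and 805.2 over the arrays and Coro1a 610, while Cd3e of T cells read 44.7 to 145.4 and Itgam 5.3 to 16.4. Cd68 was lower in the knockout in 4 of 4 pairs (log2 difference -0.37, SE 0.24), Ncf1 was higher in 4 of 4 (0.42, SE 0.22), and Tyrobp had 0.60 (SE 0.34, higher in 3 of 4). The 10 endothelial markers summed to 3067 to 4339 in controls and 3186 to 3714 in knockouts, and the 8 keratinocyte and epithelial markers to 2353 to 3254 and 3062 to 3917. None of the 6 endothelial and 4 epithelial markers tested was called, with 4 above 0 on each list and medians of 0.04 and 0.14. At an unadjusted p under 0.05 by limma, 1 endothelial marker was lower and 1 epithelial marker higher, each in both fits. Egfl7, an endothelial gene, was lower in 4 of 4 pairs (-0.46, SE 0.15), while Cldn5 and Emcn had 0.15 and 0.10. Krt8 and Krt18 had 0.11 and 0.16. Epcam had a difference of 0.42 (SE 0.17, limma adjusted p = 0.999). The stromal list summed to 428300 to 511200 and 413400 to 482100, and 1 of its 11 tested genes, Dlk1, an inhibitor of fat cell differentiation, was called lower in the paired limma fit (log2 difference -0.73, paired adjusted p = 0.0436; adjusted p = 0.999 without the block). Dcn (-0.39) was lower and Thy1 (0.22) higher in 4 of 4 pairs. Of the stromal list, 0 genes had an unadjusted limma p under 0.05 without the block, and 1 was higher and 3 lower with it. The part of these markers in the class I values was not tested.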

How the data were processed

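Total RNA of 8 samples, 4 control and 4 Dicer knockout, was hybridised to 1 array each. The submitters' processing notes name GCOS 1.3 and MAS5 as the software. What the authors deposited is a linear intensity for each probe set, the MAS5-type signal. With 2% trimmed at each end, each array averaged 1500, so arrays had been scaled to a common level. No further normalization step was known here. R 4.3.3 with limma 3.58.1, and Python 3.11.15 with matplotlib 3.10.9 for the plots, computed everything else. Values were taken as log2(signal + 73.1), the 20th percentile of all values, so folds of dim probe sets are understated. After 64 array controls were left out, 27026 probe sets (the brightest 60% by mean) were tested two-sided by lmFit and eBayes (trend on), and p-values were adjusted over all of them by Benjamini-Hochberg. By the platform annotation 34945 probe sets had 1 symbol, 932 several and 9160 none, and all 10 member symbols matched RefSeq by gene ID. The replicate number was added as a block in an alternative fit: same-numbered arrays correlated at 0.189 to 0.372 after centring on the group means, other pairs at -0.347 to 0.149, and every same-numbered pair was over 0.1. What a number stands for is not in the labels. The members and gene lists were chosen with earlier results of these data known. Genes named from a list were those past the threshold in either fit and the 3 with the smallest unadjusted p in the fit without the block; marker levels were also given for defining markers. Likeness genes were the 5 with the highest r. Alternatives varied the pseudocount, filter, normalization, trend, block, probe set rule and the arrays left out. The number of arrays limits the precision.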

Additional observations from a re-analysis of the deposited data

Results flagged for a closer look

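In 44 groups of 4 arrays, a test for a value far from the others picked out 2, about as many as chance gives (1 in 20 groups). For H2-D1 (1426324_at), control array 1 read 1066.9 against 2408.1 to 2589.1 on the other control arrays, a gap of 0.881 of the whole range. For Psmb10 (1448632_at), knockout array 4 read 6619.4 against 5161.8 to 5409.6, a gap of 0.83 of the range.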

How the results depend on the processing

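The count of 0 member probe sets called held under all alternatives run, with adjusted p from 0.0758 upwards. At an unadjusted p under 0.05, 0 to 10 of them passed, with 7 to 10 in the fits with the replicate block. The 0 came where the filter kept the upper 40%, which left 19 member probe sets to test. That filter removed H2-D1 1427651_x_at, the only member probe set under that p in the main fit without the block. Calls over the whole array were 1, against 13 with the replicate block, 15 with quantile normalization and the replicate block together (chosen after seeing the data), and 0 with median centring, without the trend and without the low-value filter. They ran from 0 to 2 without single arrays and from 0 to 80 without single pairs in the blocked fit, where leaving out pair 1 gave 80. The lists had 0 calls, and 1 (Dlk1) with the replicate block. The members' median of 0.174 ranged from 0.061 to 0.25. Of 481 single values, 18 changed sign, with none called. Over the 8 fits that each left out 1 array, B2m ranged from -0.0867 to 0.175 (1449289_a_at) and from -0.0585 to 0.149 (1452428_a_at), with values below 0 without control 1 and without knockout 4. Tap2 ranged from -0.0304 to 0.122, below 0 without control 2 or knockout 1. Tapbp ranged from -0.113 to 0.0284 (1421812_at) and from -0.164 to 0.0433 (1450378_at), above 0 without control 3 or knockout 2. H2-K1 1450534_x_at ranged from -0.147 to 0.254, below 0 without control 1. Over the 4 fits with the replicate block that each left out 1 pair, signs also turned for B2m 1449289_a_at (-0.033 to 0.108), H2-K1 1450534_x_at (-0.016 to 0.267), Tap2 (-0.0283 to 0.104), and Tapbp (0.0213 and 0.0977 without pair 2, 0.0464 and 0.0702 without pair 3). The number of arrays limits all of these values. The cause of these shifts was not tested.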
